A study of Mus musculus with 6 samples.

Results

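The 9 genes described here carry haemoglobin and the handling of haem in the mouse: the adult alpha-globins Hba-a1 and Hba-a2, the adult beta-globins Hbb-bs and Hbb-bt, the haem synthesis enzymes Alas1, Alas2 and Fech, and the haem breakdown enzymes Hmox1 and Blvrb. They were taken by gene symbol from a table of read counts with 56674 rows, and all 9 were present and passed the filter on low counts that left 18284 genes. The libraries hold bulk liver RNA of male mice of the inbred strain C57BL/6, aged 71 weeks. Of the 6 libraries, 3 came from mice fed chow with polypropylene microplastic (PP-MP) and 3 from mice fed normal chow (control), and the study asked whether a long exposure alters hepatic gene expression. One label field writes PS-MP for all 6 samples, so the groups follow the titles and the treatment field. No dose, particle size or length of feeding is stated in the labels used. The labels do not say that the replicates were separate animals, so p-values measure only the spread between these samples.

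Haemoglobin is a tetramer of alpha- and beta-globin chains, each of which holds a haem group, and in adults it is made by red cell precursors in the bone marrow and spleen. Haem is built from glycine and succinyl-CoA. ALAS catalyses the first step, as ALAS1 in most cells and as ALAS2 in red cell precursors, and ferrochelatase (FECH) inserts iron in the last step. The adult liver makes haem mainly for its cytochromes P450. Haem is opened by haem oxygenase, whose inducible form is HMOX1, and the biliverdin formed is reduced mainly by BLVRA. BLVRB is a flavin reductase that reduces other biliverdin isomers. Macrophages of the spleen and liver use HMOX1 to recycle the haem of aged red cells.

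The promoters of the globins, Alas2 and Alas1 are shown because they set genes used in red cell precursors beside Alas1. Alas1 serves the same first enzymatic step as Alas2, in most cells. Each sequence covers the 250 bases before the annotated start in RefSeq (GRCm38.p6), written on the coding strand, and 7 of the 9 genes had such a window. Capitals mark matches to 4 short motifs: the GATA core GATAA (reading TTATC on the other strand), the CACCC core (reading GGGTG on the other strand), the CCAAT box (reading ATTGG on the other strand) and the TATA core TATAA (reading TTATA on the other strand). Matches to different motifs do not overlap, while the pair of TATAA matches in Alas2 and a pair of CCAAT matches in Hbb-bt lie on opposite strands and overlap or touch.
Hba-a1 (chr11:32283422-32283671, plus strand): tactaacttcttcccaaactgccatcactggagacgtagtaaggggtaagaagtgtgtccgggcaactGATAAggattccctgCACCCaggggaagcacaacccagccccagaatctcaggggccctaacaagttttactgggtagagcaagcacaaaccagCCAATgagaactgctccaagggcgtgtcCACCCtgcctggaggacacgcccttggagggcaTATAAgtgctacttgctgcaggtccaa
Hbb-bs (chr7:103827929-103828178, minus strand): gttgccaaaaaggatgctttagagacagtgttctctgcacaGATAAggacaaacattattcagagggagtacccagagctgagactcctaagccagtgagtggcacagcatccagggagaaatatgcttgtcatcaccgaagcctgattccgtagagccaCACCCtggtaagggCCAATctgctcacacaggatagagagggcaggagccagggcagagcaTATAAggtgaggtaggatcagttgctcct
Hbb-bt (chr7:103813924-103814173, minus strand): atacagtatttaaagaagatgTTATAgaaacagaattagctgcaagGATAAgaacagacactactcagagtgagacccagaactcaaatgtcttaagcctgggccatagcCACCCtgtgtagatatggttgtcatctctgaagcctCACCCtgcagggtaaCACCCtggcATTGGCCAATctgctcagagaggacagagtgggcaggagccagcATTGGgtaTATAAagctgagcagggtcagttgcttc
Alas2 (chrX:150547167-150547416, plus strand): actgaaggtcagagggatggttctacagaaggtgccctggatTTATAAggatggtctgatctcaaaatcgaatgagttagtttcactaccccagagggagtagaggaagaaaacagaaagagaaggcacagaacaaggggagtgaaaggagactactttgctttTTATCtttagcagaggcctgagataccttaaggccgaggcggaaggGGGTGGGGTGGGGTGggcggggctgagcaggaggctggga
Alas1 (chr9:106247955-106248204, minus strand): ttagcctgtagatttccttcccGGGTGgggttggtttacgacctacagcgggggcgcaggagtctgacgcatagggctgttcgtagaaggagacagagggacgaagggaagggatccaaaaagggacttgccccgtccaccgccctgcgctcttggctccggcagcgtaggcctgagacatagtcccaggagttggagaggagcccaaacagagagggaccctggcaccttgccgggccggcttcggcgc
Hba-a2 is not shown because its window shares a run of 247 bases with that of Hba-a1, whereas the longest run shared by Hbb-bs and Hbb-bt is 14 bases. All 4 motifs occur in each of the 3 globin windows printed, with the TATAA nearest the start at positions -27 in Hba-a1, -29 in Hbb-bs and -28 in Hbb-bt, where position -1 is the last base before the start. Alas2 has TTATC at position -86 and GGGTG at positions -40, -35 and -30, and the only match in the Alas1 window printed is GGGTG at position -228. A further Alas1 window, before another annotated start, is not printed and holds only CACCC at position -203. Among 32851 mouse promoter windows of this length, the GATA core is found in 22.6%, the CACCC core in 52.0%, the CCAAT box in 33.8% and the TATA core in 22.8%. These matches are descriptions of the letters, not sites of binding.

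Total counts per library were between 81073738 and 100252360 in PP-MP and between 68357478 and 112566641 in control. Rn18s-rs5, a ribosomal RNA gene, took 0.655% to 0.750% of counts in PP-MP libraries and 1.15% to 11.2% in control libraries, with the highest share in control 2. Levels are given as CPM, counts relative to a fixed library size, with library sizes scaled by TMM, a method that limits the weight of a few very abundant genes. The liver origin was checked with 12 hepatocyte markers, whose summed level was 90326 to 100580 CPM in PP-MP and 81148 to 92694 CPM in control. Alb was the largest part of that sum, which does not show whether single markers differed. Apoa1 had 9667, 3557 and 7454 CPM in PP-MP and 1165, 1191 and 3692 CPM in control. In the fit described next, 7 of the 12 were higher in PP-MP and 5 lower. Fold changes, written as log2 of PP-MP over control, and two-sided p-values come from the quasi-likelihood test of edgeR, adjusted over all 18284 genes with a threshold of 0.05.

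None of the 9 genes passed that threshold in either direction, in a table where 2 of 18284 genes (0.0109%) did. Before adjustment, 3 of the 9 had p under 0.05 with a higher level in PP-MP (Hmox1, Hbb-bs and Hbb-bt), where 8.05% of all genes did. A further 2 had p under 0.05 with a lower level (Fech and Blvrb), against 5.81% of all genes. In 1 of the 9, Hmox1, every PP-MP library lay above every control library, which held for 12.2% of all genes. In 3 of the 9, Alas2, Fech and Blvrb, every PP-MP library lay below every control library, which with library totals was so for Fech but not for Alas2 and Blvrb, and which with TMM held for 9.78% of all genes. DESeq2 called 0 of the 9, and 3.35% of the 21155 genes for which it gave an adjusted p.

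**Figure D1:**
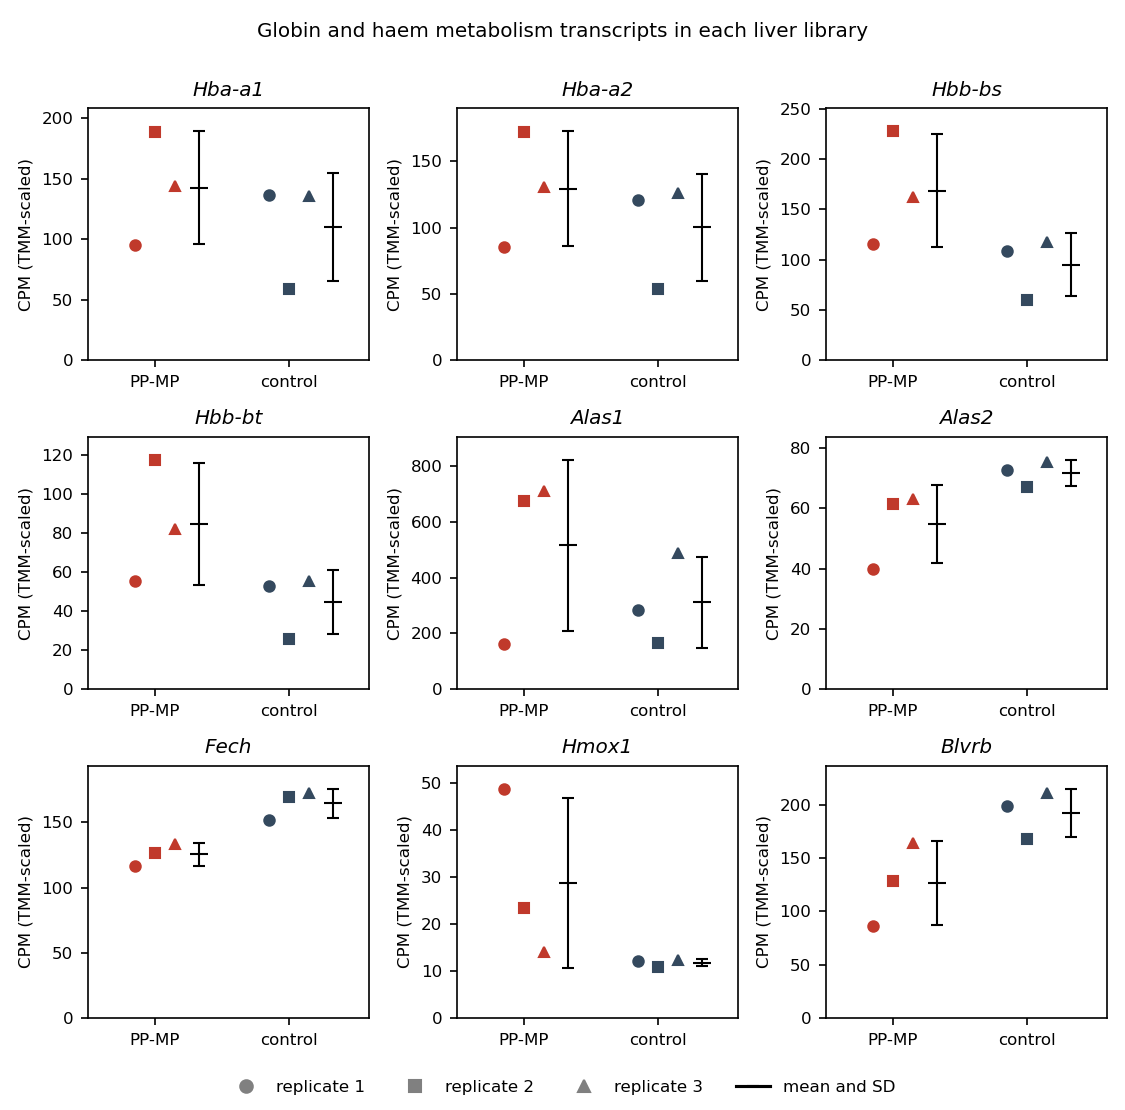
Level of each gene in each liver library, in TMM-scaled CPM on linear axes that start at 0; red symbols are the 3 PP-MP libraries, dark symbols the 3 control libraries, and bars give mean and SD. Groups overlap for the 4 globins and Alas1, while Hmox1 is higher in each PP-MP library, at 14.0 to 48.8 CPM against 10.9 to 12.4 CPM in control, and Alas2, Fech and Blvrb are lower, though Alas2 and Blvrb overlap when libraries are scaled by their totals alone.

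The alpha-globin transcripts averaged slightly higher in PP-MP, by less than the spread between libraries. Hba-a1 had 95.7, 189 and 144 CPM in PP-MP 1, 2 and 3, against 136, 59.1 and 135 CPM in control 1, 2 and 3. The groups overlapped, with PP-MP 2 highest and control 2 lowest of all libraries. Hba-a1 averaged 142.8 ± 46.6 CPM in PP-MP and 110.3 ± 44.3 CPM in control (SD, n = 3 each), a log2 difference of 0.37 (SE 0.38, 95% interval −0.54 to 1.29, edgeR adjusted p = 0.68). Hba-a2, the neighbouring copy, had 85.5, 172 and 130.3 CPM in PP-MP and 121, 54.0 and 126 CPM in control. Its libraries stood in nearly the order of Hba-a1, and its log2 difference was 0.37 (SE 0.39, edgeR adjusted p = 0.69).

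The beta-globin transcripts averaged higher in PP-MP, without passing the threshold. Hbb-bs had 116, 228 and 162 CPM in PP-MP 1, 2 and 3, against 108, 59.7 and 118 CPM in control 1, 2 and 3. PP-MP 1 lay between control 1 and control 3, so the groups overlapped by this 1 library. Hbb-bs averaged 169 ± 56.3 CPM in PP-MP and 95.2 ± 31.1 CPM in control (SD, n = 3 each), a log2 difference of 0.82 (SE 0.34, 95% interval 0.01 to 1.63, edgeR adjusted p = 0.36), or 0.54 without PP-MP 2. Hbb-bt, the second adult beta chain, had 55.1, 117 and 81.7 CPM in PP-MP and 52.9, 25.7 and 55.4 CPM in control. The same overlap was seen, and its log2 difference was 0.92 (SE 0.38, 95% interval 0.02 to 1.82, edgeR adjusted p = 0.36). When libraries were scaled by their totals alone, every PP-MP library lay above every control library for Hbb-bs and Hbb-bt. That scaling put the median log2 difference of all genes at 0.26, against 0.03 with TMM.

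The copies within each pair share sequence, so that reads may have been divided between them by the counting. Of the 50-base windows of the annotated transcript, 67.5% of Hba-a1 and 86.9% of Hba-a2 occur in the other alpha copy, and 65.8% of Hbb-bs and 58.3% of Hbb-bt occur in the other beta copy. Summing each pair before the fit removes the dependence on how reads were divided, but not that on any shared reads that were discarded, and the handling of such reads is not stated. Ratios of alpha to beta and levels per length rest on it too. The alpha pair had 181, 361 and 274 CPM in PP-MP and 257, 113 and 261 CPM in control, with a log2 difference of 0.37 (SE 0.39, edgeR adjusted p = 0.69). The beta pair had 171, 345 and 244 CPM in PP-MP and 161, 85.4 and 173 CPM in control, with a log2 difference of 0.86 (SE 0.35, edgeR adjusted p = 0.36). The alpha difference was 0.08 without control 2, the library with the lowest globin level, and the beta difference was then 0.61.

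The balance of alpha to beta transcripts did not overlap between the diets. PP-MP 1, 2 and 3 had 1.06, 1.05 and 1.12 alpha counts per beta count, against 1.59, 1.32 and 1.51 in control 1, 2 and 3. All 3 PP-MP libraries were below all 3 control libraries, with means of 1.08 ± 0.0407 in PP-MP and 1.48 ± 0.138 in control (SD, n = 3 each). The ratio is taken within a library and does not depend on library scaling. Its log2 difference was −0.45, and the exact permutation test gave p = 0.1, the smallest value that 3 against 3 libraries allow, so it cannot reach 0.05. The difference was −0.53 to −0.39 with each library left out in turn.

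Within each pair, the shares of the copies were close. Hba-a2 made up 47.2%, 47.7% and 47.5% of alpha counts in PP-MP and 46.9%, 47.7% and 48.1% in control (p = 0.8, exact permutation test). Hbb-bt made up 32.3%, 34.0% and 33.5% of beta counts in PP-MP and 32.8%, 30.1% and 32.0% in control (p = 0.2, exact permutation test). The 4 comparisons of ratios and shares, including that of Alas2 to globin given next, form one family. Adjusted over it, the exact permutation p was 0.2 for alpha to beta and for Alas2 to globin, 0.27 for the Hbb-bt share and 0.8 for the Hba-a2 share.

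Alas2, the ALAS of red cell precursors, averaged lower in the PP-MP libraries, whereas the globins averaged higher. It had 39.8, 61.6 and 63.0 CPM in PP-MP 1, 2 and 3, against 72.9, 67.1 and 75.4 CPM in control 1, 2 and 3. All PP-MP libraries were below all control libraries with TMM factors, but the groups overlapped with library totals, where the log2 difference was −0.16. Alas2 averaged 54.8 ± 13.0 CPM in PP-MP and 71.8 ± 4.27 CPM in control (SD, n = 3 each), a log2 difference of −0.39 (SE 0.20, 95% interval −0.86 to 0.08, edgeR adjusted p = 0.43), or −0.21 without PP-MP 1. Control 2 had the lowest globin level of the 6 libraries, at 199 CPM for the 4 genes together, yet its Alas2 level was close to that of control 1 and control 3. Per 100 globin counts there were 11.3, 8.72 and 12.2 Alas2 counts in PP-MP and 17.4, 33.8 and 17.4 in control. The groups did not overlap in this ratio, whose log2 difference was −1.03 (exact permutation p = 0.1, the smallest possible), or −0.71 without control 2. Alas2 shares exonic positions with Apex2, a DNA repair gene on the opposite strand, at 7.60 to 8.76 CPM in PP-MP and 5.29 to 6.73 CPM in control. The libraries were made with a directional kit, but the strand setting of the counting is not stated, so reads of the overlap may count for either gene.

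**Figure D2:**
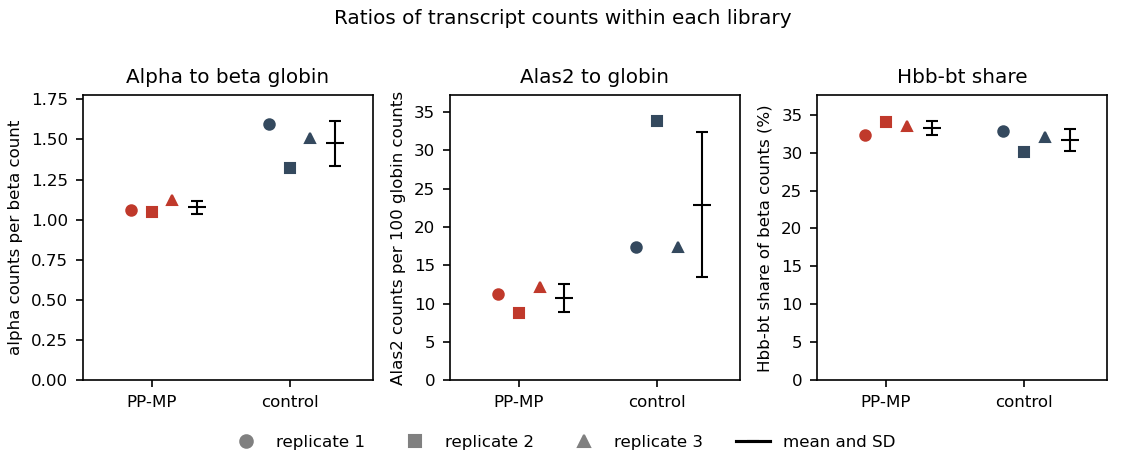
Ratios of counts within each library on linear axes that start at 0: alpha-globin counts per beta-globin count, Alas2 counts per 100 globin counts, and the Hbb-bt share of beta-globin counts in percent; red symbols are PP-MP, dark symbols control, bars mean and SD. The alpha to beta ratio is 1.05 to 1.12 in PP-MP and 1.32 to 1.59 in control, and control 2 stands apart in the Alas2 ratio at 33.8.

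Other transcripts of red cells and their precursors were scarce in these livers. Of 24 such markers 23 were matched, Ahsp was not analysed here, and 12 passed the filter, of which 6 had a positive and 6 a negative log2 difference. The median was 0.10, against 0.03 for all genes. Epb42, Hemgn, Kel, Rhag, Rhd and Tspo2 were at 0 in all 6 libraries, and 14 of the 23 were under 1 CPM in every library. The erythroid regulator Klf1 had 0.0966 to 0.998 CPM in PP-MP and 0.166 to 1.45 CPM in control, and the anion exchanger Slc4a1 at most 0.274 CPM in PP-MP and 0.166 CPM in control. Summed over the 23, the level was 42.8, 39.4 and 39.3 CPM in PP-MP and 33.1, 32.3 and 34.5 CPM in control. The largest parts of that sum were Bpgm and the transferrin receptor Tfrc, and without Tfrc the sums overlapped between the groups. Bpgm had 10.8 to 13.2 CPM in PP-MP and 11.3 to 12.9 CPM in control. Tfrc, which hepatocytes also express, had 15.5, 10.4 and 14.3 CPM in PP-MP and 6.78, 6.15 and 7.10 CPM in control. The 95% interval of its log2 difference was 0.55 to 1.46 (edgeR adjusted p = 0.18), and DESeq2 called it higher. In bulk tissue, fewer cells of a type and less RNA per cell cannot be told apart.

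The embryonic and other globins were mostly not seen. Hba-x, Hbb-bh0, Hbb-bh1, Hbb-bh2, Hbb-y, Hbq1a, Hbq1b and the muscle globin Mb were at 0 in all 6 libraries. Cytoglobin (Cygb), a globin of hepatic stellate cells, had 13.1 to 15.1 CPM in PP-MP and 12.3 to 14.4 CPM in control, with a log2 difference of 0.06 (SE 0.14). Adgb, which encodes androglobin, had 2.96, 1.35 and 0.812 CPM in PP-MP and 0.193, 0.398 and 0.239 CPM in control. Its log2 difference was 2.63 (SE 0.58), with an edgeR adjusted p of 0.21, and DESeq2 called it higher.

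Alas1, the rate-limiting enzyme of hepatic haem synthesis, varied widely among libraries of the same diet. It had 163, 674 and 709 CPM in PP-MP 1, 2 and 3, against 285, 165 and 487 CPM in control 1, 2 and 3. PP-MP 1 was the lowest of the 6 libraries and PP-MP 2 and 3 the highest, so the groups overlapped. Alas1 averaged 515 ± 306 CPM in PP-MP and 312 ± 163 CPM in control (SD, n = 3 each), and its log2 difference of 0.72 had a 95% interval of −0.74 to 2.19 (edgeR adjusted p = 0.62). The log2 difference was 1.15 without PP-MP 1, 0.42 without control 2 and 1.21 without control 3. The coefficient of variation was 59.3% in PP-MP and 52.2% in control, against 6.88% in PP-MP and 6.82% in control for Fech.

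Fech was lower in every PP-MP library, with TMM factors and with library totals, but the size of the difference depended on the scaling. It had 116, 126 and 133 CPM in PP-MP 1, 2 and 3, against 152, 169.5 and 172 CPM in control 1, 2 and 3. The highest PP-MP library stood below the lowest control library. Fech averaged 125 ± 8.63 CPM in PP-MP and 164 ± 11.2 CPM in control (SD, n = 3 each), a log2 difference of −0.39 (SE 0.13, 95% interval −0.71 to −0.07, edgeR adjusted p = 0.30). With library totals the log2 difference was −0.16 (edgeR unadjusted p = 0.27).

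Across the 9 enzymes of haem synthesis, 3 had a positive and 6 a negative log2 difference, with a median of −0.28 against 0.03 for all genes, and none passed the threshold. Besides Fech, Cpox, which makes protoporphyrinogen, had 111, 98.9 and 129 CPM in PP-MP and 95.7, 187.5 and 239 CPM in control (log2 difference −0.62, SE 0.33). Uros, which closes the porphyrin ring, had 6.91, 4.50 and 11.03 CPM in PP-MP and 3.91, 4.26 and 5.21 CPM in control (log2 difference 0.75, SE 0.34). For both genes the groups overlapped. Genes of haem transport and mitochondrial iron delivery were 13 of 16 lower in the fit with a median of −0.37, and 7 of the 16 had p under 0.05 before adjustment, all lower, where 5.81% of all genes were lower at that p. The 4 of smallest p were Abcg2, an exporter of porphyrins (log2 difference −0.74, SE 0.20), Abcb10, a mitochondrial transporter (−0.50, SE 0.14), Slc48a1, which carries haem out of lysosomes (−0.47, SE 0.15), and Iscu, the scaffold of iron-sulphur clusters (−0.46, SE 0.15). In 7 of the 16, these 4 among them, all PP-MP libraries were below all control libraries with TMM factors, as in 9.78% of all genes. The edgeR adjusted p of these 4 was 0.24 to 0.30. With library totals the groups of Slc48a1 and Iscu overlapped, and those of Abcg2 and Abcb10 did not. The counts and medians of all lists were taken with TMM factors. Library totals put the median log2 difference of all genes at 0.26, against 0.03 with TMM.

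Of a list of 20 liver enzymes drawn up as haem-containing, Hgd is an iron enzyme without haem. Of the other 19, 16 had a negative log2 difference and the median was −0.37, against 0.03 for all genes. Before adjustment, 5 of the 19 had p under 0.05, all lower, where 5.81% of all genes were lower at that p. The cytochrome P450 Cyp2c29 had 330.2, 625 and 706 CPM in PP-MP and 1538, 1360 and 1708 CPM in control, with a log2 difference of −1.47 (SE 0.30, edgeR adjusted p = 0.19). Cyp2b10, a P450 induced by xenobiotics, had 0.426, 1.22 and 0.831 CPM in PP-MP and 10.2, 3.22 and 7.58 CPM in control, with a log2 difference of −3.09 (SE 0.56, edgeR adjusted p = 0.18). Neither passed the edgeR threshold, and DESeq2 called both lower. The haem-binding Cyb5b and the desaturase Fads1, which carries a cytochrome b5 domain, had log2 differences of −0.82 (SE 0.23) and −0.82 (SE 0.28).

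**Figure D3:**
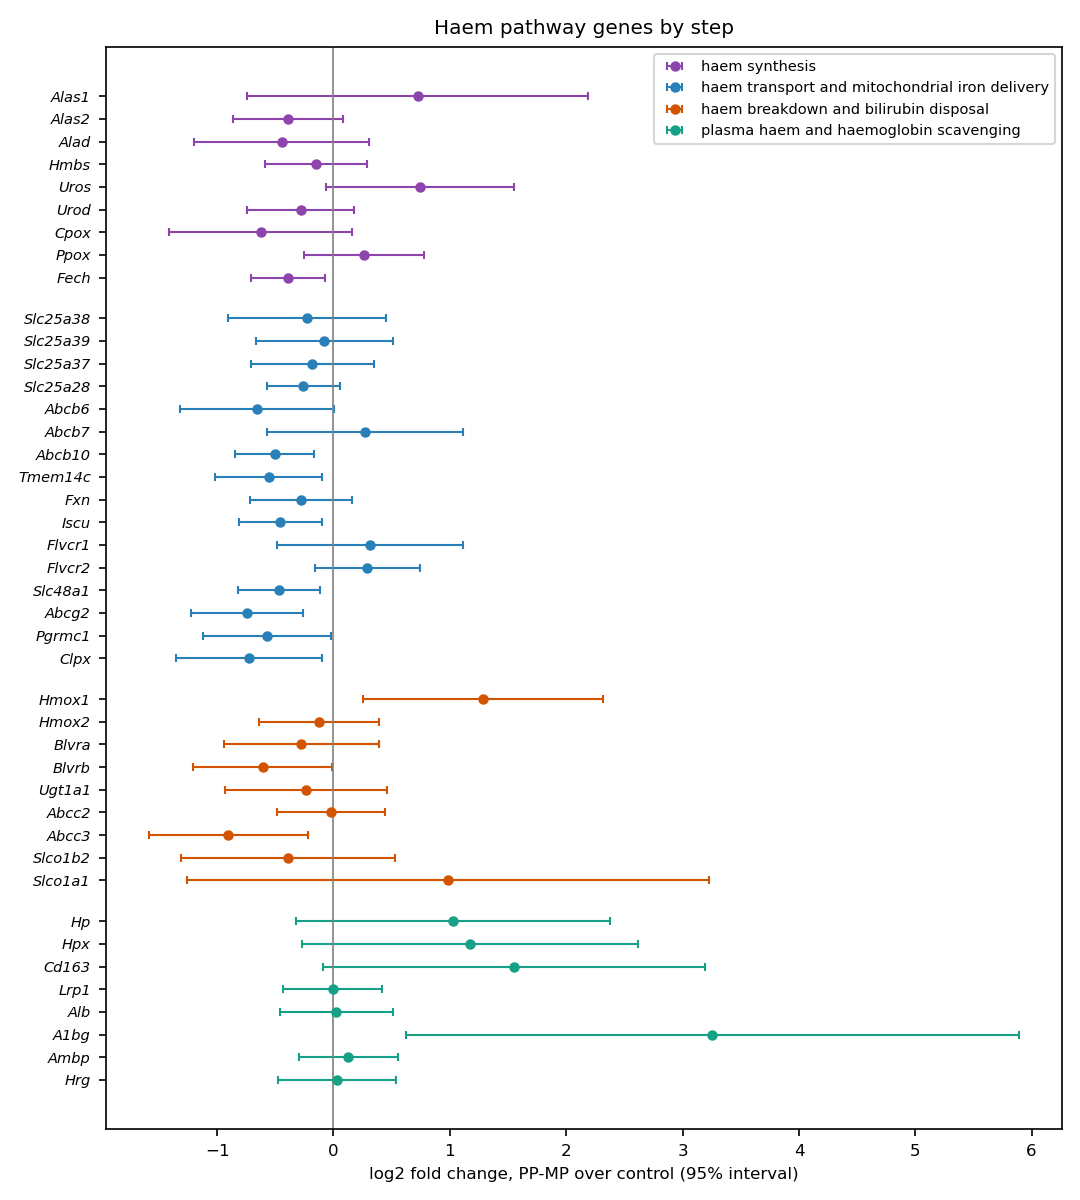
Log2 fold change of PP-MP over control with its 95% interval for genes of haem synthesis, transport, breakdown and plasma scavenging, coloured by step; the grey line marks 0. Of the 9 synthesis genes 6 lie below 0, of the 16 transport genes 13 do, Hmox1 lies above 0, and the intervals of Hp, Hpx and Cd163 include 0. The interval of A1bg, at 0.63 to 5.89, does not, but A1bg had at most 0.406 CPM in PP-MP and 0.0765 CPM in control.

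Hmox1, the inducible haem oxygenase, was higher in each PP-MP library but very unevenly. It had 48.8, 23.4 and 14.0 CPM in PP-MP 1, 2 and 3, against 12.1, 10.9 and 12.4 CPM in control 1, 2 and 3. PP-MP 3 was just above the highest control library, whereas PP-MP 1 was far above all others. Hmox1 averaged 28.7 ± 18.0 CPM in PP-MP and 11.8 ± 0.776 CPM in control (SD, n = 3 each), a log2 difference of 1.28 (SE 0.43, 95% interval 0.25 to 2.31, edgeR adjusted p = 0.30). Without PP-MP 1 the log2 difference was 0.66.

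Markers of resident liver macrophages stood in the same order as Hmox1 among the PP-MP libraries. Summed over 13 markers, of which none was at 0, the level was 698, 412 and 190 CPM in PP-MP 1, 2 and 3, against 184, 146 and 196 CPM in control 1, 2 and 3. All 13 had a positive log2 difference, with a median of 1.18. Before adjustment 6 had p under 0.05, where 8.05% of all genes were higher at that p. None passed the edgeR threshold, while DESeq2 called 4 higher, and 3.35% of all genes in either direction. The scavenger receptor Marco had 138, 66.6 and 24.2 CPM in PP-MP and 3.39, 3.53 and 1.56 CPM in control (log2 difference 4.76, SE 0.72, edgeR adjusted p = 0.18). Cd5l, a protein secreted by macrophages, had 146, 88.9 and 40.4 CPM in PP-MP and 41.4, 33.5 and 46.8 CPM in control (log2 difference 1.18, SE 0.44). Timd4, a receptor for dying cells on Kupffer cells, had 17.8, 9.30 and 3.41 CPM in PP-MP and 2.31, 2.47 and 1.02 CPM in control (log2 difference 2.40, SE 0.64). Clec4f, a lectin of Kupffer cells, had 53.1, 48.3 and 27.7 CPM in PP-MP and 34.3, 25.2 and 32.9 CPM in control (log2 difference 0.48, SE 0.27, edgeR adjusted p = 0.46). Neutrophil markers summed to 30.6, 6.43 and 3.70 CPM in PP-MP 1, 2 and 3 and to 2.97, 2.49 and 2.14 CPM in control 1, 2 and 3, and all 7 tested had a positive log2 difference. Platelet markers summed to 9.37 to 23.0 CPM in PP-MP and 7.73 to 9.15 CPM in control, but the sums overlapped without Clec1b. Clec1b had 10.6, 4.89 and 3.52 CPM in PP-MP and 2.22, 2.79 and 2.85 CPM in control. For Itga2b the groups overlapped, at 2.97 to 5.31 CPM in PP-MP and 2.97 to 4.23 CPM in control. Of the 8 platelet markers tested, 7 had a positive and 1 a negative log2 difference. The positive ones include Gp5, which had 0 counts in every control library and so passed the filter only through PP-MP. Of the 11 platelet markers listed, 7 were under 1 CPM in every library. Of 10 lymphocyte markers the general leukocyte gene Ptprc had 4.19 to 17.1 CPM in PP-MP and 3.44 to 12.4 CPM in control (log2 difference 0.55, SE 0.65). The other 9 summed to 6.995 to 10.1 CPM in PP-MP and 9.83 to 21.6 CPM in control, and all 9 had a negative log2 difference. The part of these cells in the Hmox1 level was not tested.

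**Figure D4:**
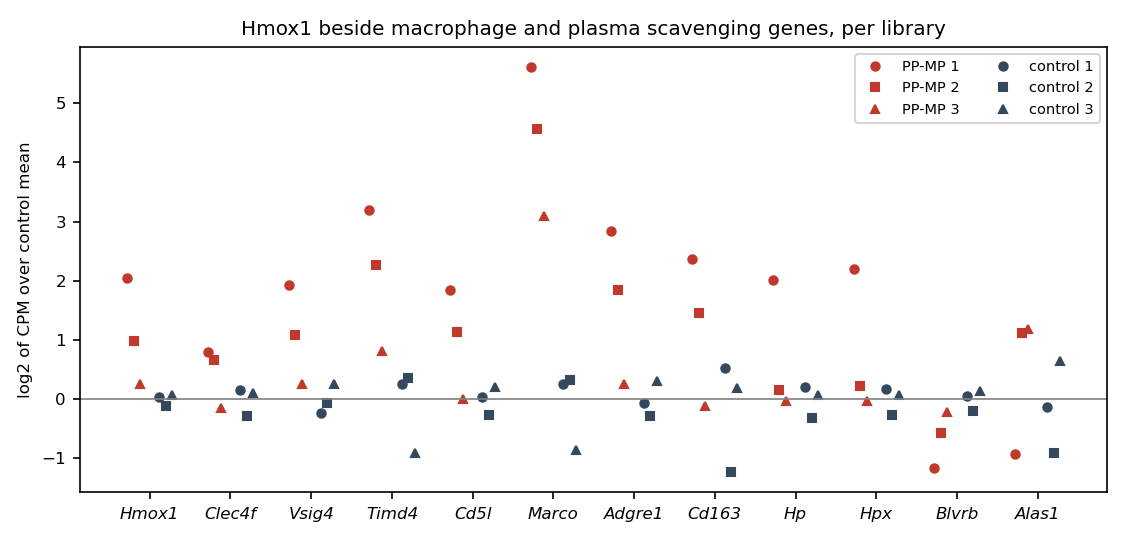
Level of Hmox1, 6 resident macrophage markers, Cd163, Hp, Hpx, Blvrb and Alas1 in each library, as log2 of CPM over the control mean of the gene; red symbols are PP-MP 1, 2 and 3, dark symbols control 1, 2 and 3. PP-MP 1 is the highest library for Hmox1 (48.8 CPM), Marco (138 CPM), Hp and Hpx and the lowest for Blvrb (86.0 CPM).

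Blvrb, the flavin and biliverdin reductase, had 86.0, 129 and 165 CPM in PP-MP 1, 2 and 3, against 199, 168 and 211.5 CPM in control 1, 2 and 3. Its PP-MP libraries lay in the opposite order to their Hmox1 levels, and PP-MP 3 was close to control 2. Blvrb averaged 127 ± 39.4 CPM in PP-MP and 193 ± 22.5 CPM in control (SD, n = 3 each), a log2 difference of −0.61 (SE 0.25, 95% interval −1.21 to −0.01, edgeR adjusted p = 0.36). With library totals the groups overlapped and the log2 difference was −0.39, as it was without PP-MP 1. Of the 9 genes of haem breakdown and bilirubin disposal, 2 had a positive and 7 a negative log2 difference, with a median of −0.24. Abcc3, which exports bilirubin conjugates to the blood, had 153, 317 and 239.9 CPM in PP-MP and 469, 365 and 493 CPM in control (log2 difference −0.90, SE 0.29, edgeR adjusted p = 0.28). The constitutive Hmox2 and the biliverdin reductase Blvra had log2 differences of −0.12 (SE 0.22) and −0.28 (SE 0.28).

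Among transcripts of plasma proteins that bind free haemoglobin or haem, Hp and Hpx were highest in PP-MP 1. Albumin (Alb), on the same list, was lowest in that library, at 47008 CPM. Haptoglobin (Hp), which binds haemoglobin, had 11300, 3139 and 2758 CPM in PP-MP and 3221, 2250 and 2960 CPM in control (log2 difference 1.03, SE 0.56, edgeR adjusted p = 0.46). Hemopexin (Hpx), which binds haem, had 12057, 3055 and 2574 CPM in PP-MP and 2950, 2180 and 2733 CPM in control (log2 difference 1.17, SE 0.60, edgeR adjusted p = 0.44). For both, PP-MP 1 stood apart and PP-MP 2 and 3 lay near the control libraries. Cd163, the macrophage receptor for haptoglobin-haemoglobin and also 1 of the 13 macrophage markers above, had 14.9, 7.94 and 2.67 CPM in PP-MP and 4.15, 1.23 and 3.31 CPM in control (log2 difference 1.56, SE 0.69). The list of 8 genes also held A1bg, a plasma protein not known to bind either, which had under 1 CPM in every library. Without it, 6 of 7 had a positive log2 difference with a median of 0.13, where the 8 had a median of 0.58, and none passed the threshold.

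Of 13 regulators of Alas1 and Hmox1, 7 had a positive and 6 a negative log2 difference, the median was 0.12, and none passed the threshold. Mafg, a small Maf protein that pairs with BACH1 or NRF2, had 21.4, 17.4 and 14.8 CPM in PP-MP and 13.7, 11.2 and 10.9 CPM in control (log2 difference 0.58, SE 0.19, edgeR adjusted p = 0.29). Bach1, the haem-sensing repressor of Hmox1, had 29.0, 28.2 and 27.1 CPM in PP-MP and 17.6, 25.5 and 23.5 CPM in control (log2 difference 0.34, SE 0.17). Keap1, which holds NRF2 in the cytoplasm, and Ppargc1a, a coactivator of Alas1, had log2 differences of −0.26 (SE 0.14) and 0.68 (SE 0.34).

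Per kilobase of the longest coding transcript in GENCODE M21, Hbb-bs was the most abundant of the 9 in PP-MP, at 268 ± 89.7 CPM per kb, against 152 ± 49.5 CPM per kb in control. Hba-a2 had 233 ± 78.3 CPM per kb in PP-MP and 181 ± 72.3 CPM per kb in control, Hba-a1 204 ± 66.7 in PP-MP and 158 ± 63.4 in control, and Hbb-bt 120 ± 44.4 in PP-MP and 63.6 ± 23.5 in control. Alas1 had 152 ± 89.9 CPM per kb in PP-MP and 91.8 ± 47.9 CPM per kb in control, and Blvrb 123 ± 38.3 in PP-MP and 187 ± 21.9 in control. Alas2, Fech and Hmox1 were the lowest, at 26.9, 19.1 and 18.3 CPM per kb in PP-MP and 35.3, 25.0 and 7.51 CPM per kb in control. The differences between Hbb-bs and the alpha-globins in PP-MP were smaller than the spread between libraries. In control, Blvrb exceeded every globin by this measure, though by less than the spread between libraries for the alpha-globins and Hbb-bs.

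The genes whose library profile was nearest to that of the 4 globins summed were sought among 11452 named genes by the root mean square difference of centred log2 CPM over 6 libraries. They were Sertad2 (0.19), Fam169b (0.24), Tlr12 (0.24), Kifc2 (0.24) and Ift52 (0.24), for a target whose SD was 0.61 on the log2 scale. Among the 5 nearest to Alas1 were Crybg2 (0.26), the cytochrome P450 Cyp2c40 (0.30), Acot6 (0.44) and the clock gene Per2 (0.44), for a target SD of 0.96. Per2 had 5.11, 12.2 and 11.7 CPM in PP-MP and 3.91, 3.30 and 5.87 CPM in control. The 6 libraries also differ in depth and in the share of ribosomal RNA, so likeness is a description only.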

How the data were processed

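Liver RNA of 6 libraries, 3 PP-MP and 3 control, was poly(A)-selected and made into directional libraries, per the labels' protocols. The deposited table gives raw read counts per gene symbol, made by the authors from reads mapped to GRCm39 after bcl2fastq, per the submitters' processing notes. The sources used here name no aligner, counting tool, annotation or strand setting. The 6 per-sample count files equal the columns of the table.

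Counts were filtered with filterByExpr, scaled with TMM and tested in edgeR 4.0.16 (R 4.3.3) with its robust quasi-likelihood test (two-sided; Benjamini-Hochberg adjusted across 18284 genes). Standard errors and intervals come from the same fit. Ratios within a library were compared with exact two-sided permutation tests. The procedure was tested on simulated data. Alternatives were DESeq2 1.42.0, limma-voom (limma 3.58.1), other scalings and filters, a replicate block, and libraries left out. Tables, sequences and figures were made in Python 3.11.15 with matplotlib 3.10.9, SciPy 1.17.1, NumPy 2.4.6 and pandas 2.3.3.

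The genes and lists were chosen with earlier results of these data known. All 9 genes are named. Genes of the other lists that may be named are the 4 of smallest p and, in marker lists, the 3 most abundant, and of the marker lists only some of these are printed. A few further list genes (Hmox2, Blvra, Klf1, Slc4a1 and Hgd) fall outside that rule and were named after their values were seen. The same holds for the red cell markers and globins named as being at 0 in all 6 libraries. Ahsp, also outside the rule, was named because it was not matched. Of 178 list entries 176 matched by symbol, 1 by a RefSeq synonym and 1 not at all. Hgd, A1bg and Ptprc were set apart from their lists for their known roles, after their values were seen. Of the 5 genes nearest in profile to Alas1, 1 is not reported here. Lengths and overlapping genes come from GENCODE M21 (GRCm38). Libraries of a group were not duplicates, since a chi-square test of their counts gave 154 to 928 for each degree of freedom.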

Additional observations from a re-analysis of the deposited data

How the results depend on the processing

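All 131 values of the 9 genes under alternative scalings, filters, tests and sets of libraries kept the direction and the side of the threshold of the values reported, and 0 reversed. The summed alpha and beta pairs also kept both under each alternative that could be fitted, which leaves out the one without globins. The number of genes called across the table was less stable: 2 in the edgeR fit reported, 1 with library totals, 1 with limma-voom, 708 with DESeq2, and 0 to 92 with each library left out, the 92 coming without control 2. Of the red cell markers DESeq2 called 1, Tfrc, against 0 in edgeR. The cause of these differences was not tested. Adjusted p over the alternatives was 0.084 (DESeq2) to 0.57 for Hmox1, 0.21 to 0.61 for Fech and 0.20 to 0.61 for Hbb-bs. The Hmox1 log2 difference was 0.61 without control 2 and PP-MP 1 together, and that of Alas1 was 0.42 to 1.21 with each library left out. For the ratios, leaving out control 2 and PP-MP 1 together was chosen after seeing the data, and the log2 difference of alpha to beta was then −0.52 and that of Alas2 to globin −0.76. With a replicate block, 0 genes were called and the Hmox1 log2 difference was 1.10 (edgeR adjusted p = 0.49). Same-numbered libraries correlated at −0.08, −0.12 and 0.06 in their deviations from the group means, and different-numbered libraries at −0.08 to 0.14. No label pairs the samples, and these values cannot show whether same-numbered samples share more than a number. Counts of 11977 to 64358 for the 4 globins per library leave counting error small beside the spread between libraries.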
